A study of Homo sapiens with 4 samples.

Results

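The input RNA of X-rayed HEK293T cells was compared between cells with a control shRNA and cells with an shRNA against the RNA demethylase ALKBH5, and the genes that were higher or lower after the knockdown were described by function and by transcript length. HEK293T cells derive from human embryonic kidney and express the large T antigen of SV40. For both inputs counts were summed per gene name, and genes with at least 100 counts over these 2 libraries were kept, which left 4756 of the 14911 genes listed in the whole series. The kept genes held 93.5% of the counts of each input. The lists of genes used to describe function were drawn up with earlier results of these data known.

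The series holds 4 libraries of m6A-seq, an assay in which fragmented mRNA is sequenced before (input) and after (m6A-IP) a pull-down with an antibody against N6-methyladenosine. The shCTL and shA5 populations were made by lentiviral transduction with pLKO.1 vectors and puromycin selection, both were exposed to X-rays (10 Gy), and mRNA was purified with oligo(dT), which captures poly(A) tails. Each population gave 1 input and 1 m6A-IP, there was no unirradiated library, and the time after exposure and the choice between a pair of ALKBH5 shRNAs are not given in the sources used here. With 1 library per group, no difference between the inputs has a replicate check and no p-value was computed, and effects of the shRNA cannot be told apart from those of separate selection, culture or library preparation. Here a gene is called higher or lower in shA5 when its CPM (the gene's count scaled by the total count of the library) differed by at least 1.5-fold, on the log2 scale with 0.5 CPM added to each value. Exact 95% intervals (Clopper-Pearson, conditional on the summed count) are given for ratios. They express counting error alone, because each group has 1 library. No molecular identifiers were read, so amplified copies of a molecule cannot be told from separate molecules and the intervals can be too narrow. In bulk RNA of this kind, fewer cells of a type and less RNA per cell cannot be told apart, and CPM values are relative to the sum of all other RNAs.

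m6A is a methyl mark that a methyltransferase complex places on adenosines of mRNA and that ALKBH5 and its relative FTO remove. Proteins with a YTH domain bind the mark and are known to direct marked mRNAs to decay, translation or export, so a demethylase can affect the level of an mRNA as well as its methylation. In irradiated cells the control of mRNA level also passes through the DNA damage checkpoints, p53 and the cell cycle.

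The total count was 2237819 for shCTL and 1311390 for shA5, so 3 counts correspond to 1.34 CPM in the former and 2.29 CPM in the latter. The marker genes of the line gave a mixed picture. LHX1, a regulator of kidney progenitors, had 117 counts in the shCTL input, and NEFL, a neurofilament seen in this line, had 179, while the neuronal filament genes NEFM and INA had 3 and 2 counts each in shCTL and shA5, PAX2 was at 0 in both inputs and VIM, the vimentin of this and many other lines, had 4 and 2 counts. Markers of blood (PTPRC, CD3E, HBB), liver (ALB, APOA1) and endothelium (PECAM1, CDH5) were at 0 in both inputs, as were the fibroblast genes COL1A2 and DCN, while the fibroblast gene COL1A1 had 401 and 150 counts (179 and 114 CPM). Some genes that cells express at high levels were listed with few counts, GAPDH with 78 and 42, and how reads shared between gene copies were counted is not given, so values are compared between libraries and not between genes.

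ALKBH5 itself had 486 counts in shCTL and 145 in shA5, or 217 and 111 CPM. The log2 change was -0.97, with an interval of -1.25 to -0.70. For the m6A-IPs the values were 363 and 187 CPM (-0.95). The library labelled shA5 thus held less ALKBH5 RNA in both fractions. The sequences of the pair of shRNAs are shown since they define the knockdown, each in capitals over its whole length as the RNA target, and both match ALKBH5 alone among the annotated transcripts (hg38, Gencode v44).
shALKBH5-1: GAAAGGCTGTTGGCATCAATA
shALKBH5-2: CCTCAGGAAGACAAGATTAGA
The first matches the 3′ UTR of transcript ENST00000399138 at chr17:18208616-18208636 on the plus strand. The second matches the coding sequence across an exon junction, between chr17:18195027 and 18206826.

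Of the 4756 genes, 129 were higher in the shA5 input (2.71%) and 243 were lower (5.11%), and 92.2% were neither. The counts of each gene list are to be read against these shares over all kept genes. The median log2 change over all kept genes was -0.01 (quartiles -0.24 and 0.18), with a range from -1.46 in SCUBE1 to 1.37 in PLCG2. At a 2-fold threshold 13 genes were higher and 28 were lower. Low counts carried most of the calls, since 90 of the higher and 142 of the lower genes had under 200 counts, where the intervals reached a median of 0.53 to either side on the log2 scale. Among the 699 genes with at least 1000 counts, 3 were higher and 7 were lower, with intervals of 0.14 to either side. The counting interval excluded 0 for 128 of the higher and 236 of the lower genes. These genes had been chosen by a 1.5-fold change and a count minimum in the same counts. The intervals thus give the calls no independent support. At the edge of the threshold, the smallest change called higher was 0.588 and the largest not called was 0.583. Genes just inside the count minimum, the 19 with exactly 100 counts, had a median change of 0.0031 (-1.12 to 0.93), and the 22 with 99 counts had -0.0050 (-0.63 to 0.90).

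**Figure D1:**
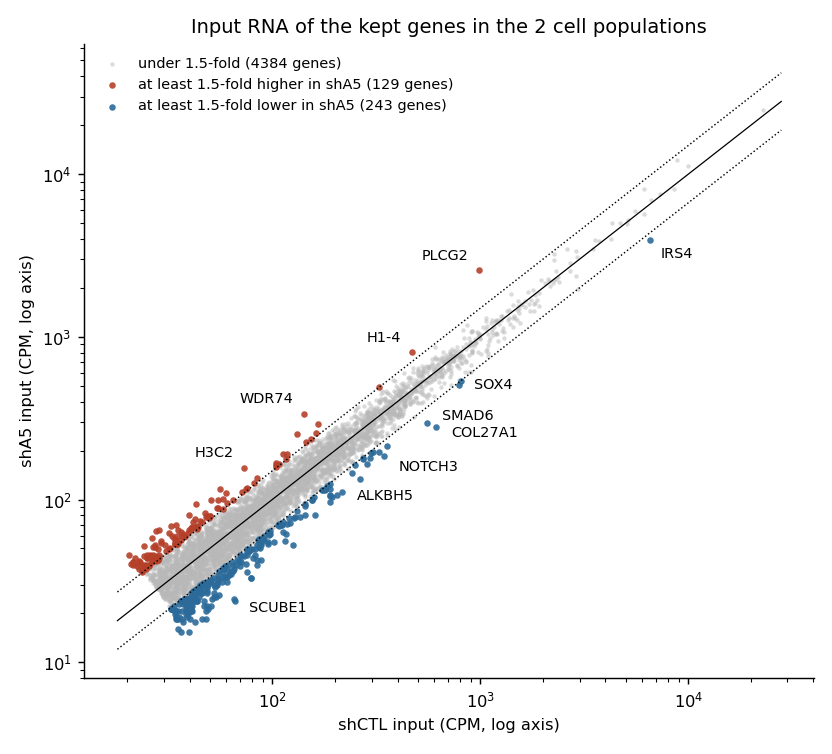
CPM of each kept gene in the shCTL input (horizontal, log axis) and in the shA5 input (vertical, log axis), 1 point per gene. The solid line marks equal CPM and the dotted lines 1.5-fold; 129 genes (red) lie above and 243 (blue) below, most of them at low CPM, with IRS4 and PLCG2 as the called genes of highest CPM.

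The 15 genes that fell most were ranked by the bound of the interval nearest 0. COL27A1, a fibrillar collagen chain, had 1376 counts in shCTL and 368 in shA5, or 615 and 281 CPM. Its log2 change was -1.13 (-1.30 to -0.96), and its most counted transcript (7813 nt) spans chr9:114155537-114312511. SCUBE1, a secreted and membrane-bound glycoprotein with EGF-like repeats, went from 66.1 to 23.6 CPM (-1.46, interval -2.09 to -0.92). SPEG, a kinase of the striated muscle lineage, went from 126 to 52.6 CPM (-1.25), and EFNB3, a transmembrane ephrin ligand of Eph receptors, from 65.2 to 24.4 CPM (-1.40). MRC2, an endocytic receptor for collagen, and ITGA2B, the integrin αIIb chain, had the same counts, 176 and 43 (-1.25).

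SMAD6, an inhibitor of BMP signalling, had 1243 and 386 counts (555 and 294 CPM, -0.92, interval -1.08 to -0.75). NOTCH3, a Notch receptor, had 771 and 242 counts (345 and 185 CPM, -0.90). IRS4, an adaptor of the insulin and IGF1 receptors that HEK293 cells are known to express at high level, had 14697 and 5189 counts. With 6568 and 3957 CPM its log2 change was -0.73 (-0.78 to -0.69), the narrowest interval among these falls. Other genes with the largest falls were LDOC1 (-1.36), the clone-named gene AC099489.1 (-0.98), the GTPase exchange factor ARHGEF17 (-0.99), FAM171A2 (-0.96) and ALKBH5. Exons of IRS4 overlap 439 nt of an antisense lncRNA and those of ARHGEF17 overlap 979 nt of another, and whether the counting used strand is not given.

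The m6A-IP libraries, which the rule did not use, gave a second value for each gene, from the same cell populations. COL27A1 changed by -1.12 there, AC099489.1 by -0.99, MRC2 by -1.07, NOTCH3 by -0.78, SMAD6 by -0.71 and IRS4 by -0.64. SCUBE1 was at -0.90 in the m6A-IPs, EFNB3 at -0.83, ITGA2B at -0.76, SPEG at -0.58, FAM171A2 at -0.38, ARHGEF17 at -0.26 and LDOC1 at -0.04. Each of these was further from its input change than the genes named before. An m6A-IP value can move with methylation as well as with the RNA level.

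**Figure D2:**
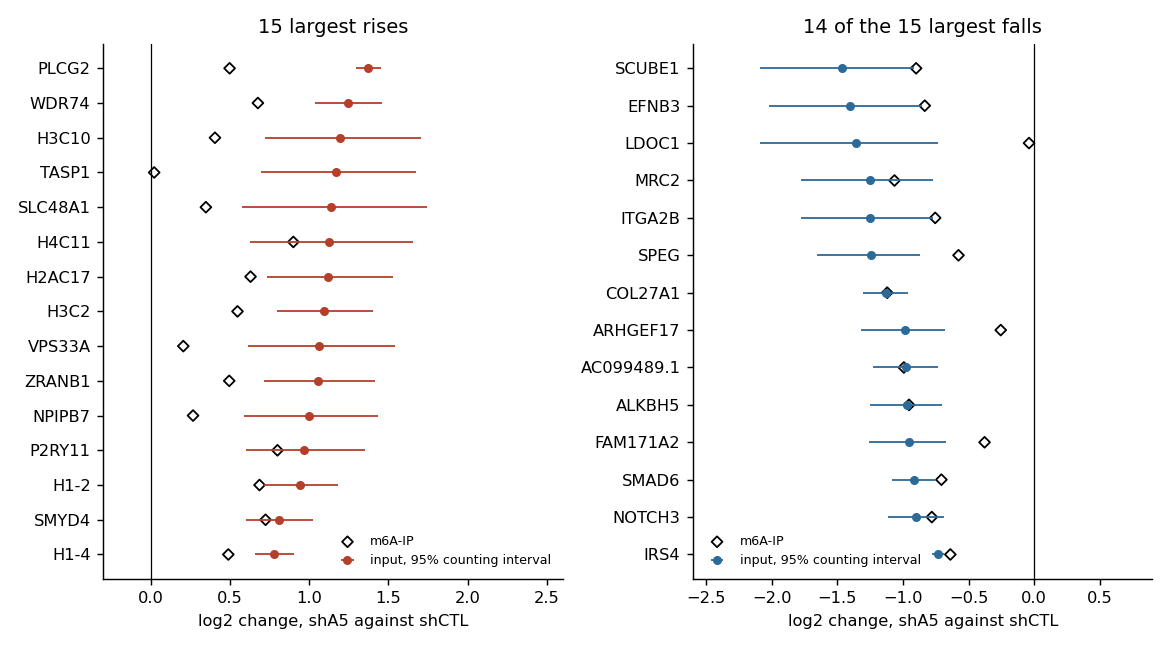
log2 change from shCTL to shA5 (horizontal) of the 15 genes with the largest rises (left) and 14 of the 15 with the largest falls (right), as filled points with 95% counting intervals for the inputs and open diamonds for the m6A-IPs. LDOC1 among the falls has an m6A-IP value of -0.04 and TASP1 among the rises one of 0.02, the values nearest 0 on each side.

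Matrix and adhesion genes had the lowest median of the 49 lists drawn up first. Of the 23 kept genes for collagens, laminins, nidogens, integrins and related proteins, which form the basement membrane and anchor cells to it, 10 were lower and 0 were higher, beside 5.11% lower among all kept genes. The median log2 change was -0.56, against -0.01 over all kept genes, and 21 of the 23 lay below 0. Besides COL27A1 and ITGA2B, those that fell furthest were COL6A2, a chain of the beaded collagen VI, with 84.5 and 39.7 CPM (-1.08), and NID1, a nidogen that links laminin to collagen IV, with 115 and 55.7 CPM (-1.04). The other lower members, named after their values were seen, were the laminin chains LAMC3 (-0.86) and LAMA1 (-0.64), NID2 (-0.72), COL1A1 (-0.65), the collagen IV chain COL4A1 (-0.63) and COL6A1 (-0.60). Below the threshold were COL4A2 (-0.53, 1766 and 715 counts), LAMA5 (-0.56, 2010 and 796 counts) and LAMC1 (-0.27, 2895 and 1404 counts). FBLN1 (0.21) and ITGA8 (0.41) were the members above 0. In the m6A-IPs the median of the same 23 genes was -0.46, with 21 below 0, beside -0.01 over all kept genes. The median GC content of these transcripts was 60.8%, against 50.8% over all kept genes, and their median length 5914 nt against 3661 nt. With the trend of the change on GC content removed the median was -0.51. COL1A1 is also a fibroblast marker, and the fibroblast markers COL1A2 and DCN were at 0 in both inputs.

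Among all kept genes more were lower (5.11%) than higher (2.71%), and counts of the signalling lists are given beside these shares. In the Wnt and Hedgehog pathways, which pattern the embryo through secreted ligands, 7 of 33 kept genes were lower (21.2%) and 0 higher, with a median of -0.18. The fallers sat at several steps of the pathways. They included the ligand WNT11 (43.3 and 23.6 CPM, -0.86), the receptor ROR2 (36.6 and 18.3 CPM, -0.98), the signal transducer DVL1 (107 and 68.6 CPM, -0.64) and SUFU, the inhibitor of the GLI factors of Hedgehog signalling (95.6 and 54.9 CPM, -0.79). The other lower members, named after their values were seen, were ROR1 (-0.89), the secreted Wnt inhibitor SFRP1 (-0.83) and ZNRF3 (-0.73), a ubiquitin ligase that removes Frizzled receptors. Of the 7 kept Frizzled receptor genes 0 were called, with changes from -0.46 to -0.02. In the m6A-IPs the median of the 33 genes was -0.07.

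In the Notch pathway, a contact signal between neighbouring cells, 2 of 25 kept genes were lower (8%, near the 5.11% of all kept genes) and 0 higher, with a median of -0.16. Besides NOTCH3 the lower member was HES6, a helix-loop-helix factor, with 46.0 and 26.7 CPM (-0.78). NOTCH1 (-0.36, 1500 and 683 counts), NOTCH2 (-0.15, 2036 and 1073 counts) and the ligand JAG1 (-0.38) were under the threshold. SPEN, a corepressor with 13715 and 10582 counts, had a change of 0.40, so the summed CPM of the list had a log2 change of 0.16, of the opposite sign to the median.

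Enzymes of O-linked glycosylation, which attach sugars to serine and threonine, had 3 of 23 genes lower (beside 5.11% of all kept genes) and 0 higher, with a median of -0.24. The lower members were the GalNAc transferases GALNT12 (48.3 and 26.7 CPM, -0.84) and GALNT16 (35.3 and 20.6 CPM, -0.76) and the O-fucosyltransferase POFUT2 (-0.63), whose m6A-IP value was 0.42. Among MAP and other protein kinases 2 of 65 genes were higher (3.08%, beside 2.71%) and 6 lower (9.23%, beside 5.11%), with a median of -0.01. The atypical MAP kinase genes MAPK15 (76.0 and 35.8 CPM, -1.07) and MAPK6 (54.1 and 29.7 CPM, -0.85) and the kinase MAP3K10 (-0.60) were lower, and WNK4, a kinase that controls ion transport, was higher (61 and 59 counts, 0.71).

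Lists added after the values of single genes had been seen described the fallers further and give no independent support. They held 39 more of the 243 lower genes, so that 101 were in any list, against 62 in the first lists. Of the 4756 kept genes 1516 were in the first lists and 1692 in any list. The 129 higher genes had 52 in the first lists and 54 in any list, so most called genes were in no list. Among developmental transcription factor families 15 of 76 kept genes were lower (19.7%) and 0 higher, with a median of -0.27. Among all kept genes 5.11% were lower and 2.71% higher, which also holds beside the counts of the other added lists. SIX5 went from 50.5 to 22.1 CPM (-1.17) and NKX2-4 from 46.9 to 22.1 CPM (-1.07), and SIX5 overlaps 2046 nt of an antisense lncRNA. SOX4 and SOX12, SoxC factors of progenitor cells, had 1774 and 659 counts (-0.66) and 1804 and 702 counts (-0.59). By family, 4 of 6 NKX genes and 3 of 7 SOX genes were lower, while 0 of 24 HOX genes and 0 of 13 FOX genes were called, with medians of -0.13 and -0.19. LHX1, the kidney progenitor marker, was among the lower genes (52.3 and 26.7 CPM, -0.96).

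In the added list of insulin and IGF signalling 3 of 6 kept genes were lower, beside 5.11% of all kept genes. IGFBP5, a secreted IGF-binding protein, had 460 and 140 counts (206 and 107 CPM, -0.94, and -1.15 in the m6A-IPs), and IRS1 had 99 and 33 counts (-0.80), while IGF2R, the receptor that clears IGF2, was at 0.10 with 3085 and 1931 counts. Of 23 kept genes of the TGF-beta and BMP pathways 3 were lower and 0 higher. With SMAD6 these were NOG, a secreted BMP antagonist (46.9 and 23.6 CPM, -0.97), and FSTL1, a secreted glycoprotein of the follistatin family (189 and 106 CPM, -0.83). Among receptor tyrosine kinases and ephrins 5 of 17 were lower, with FGFR3 (34.9 and 18.3 CPM, -0.91) beside EFNB3, ROR1, ROR2 and EGFR (-0.74). Of 30 axon guidance genes 6 were lower, among them the netrin receptor UNC5C (60.3 and 31.3 CPM, -0.94), IGDCC3 (-0.97) and the semaphorin SEMA4C (-0.61). ADAM, ADAMTS and matrix metalloprotease genes had 4 lower and 1 higher of 14, with ADAM11 (-0.92), ADAMTS2 (-0.78) and ADAMTS7 (-0.63) lower and MMP14, a membrane-bound collagenase, higher (25.0 and 43.5 CPM, 0.78). Proteoglycans and their enzymes had 6 lower and 1 higher of 27 and a median of -0.09, which was 0.03 with a minimum of 400 counts, with the glypicans GPC2 (-0.82) and GPC4 (-0.63) and CSPG4 (-0.61) lower and the chondroitin synthase CHSY1 higher (0.61).

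**Figure D3:**
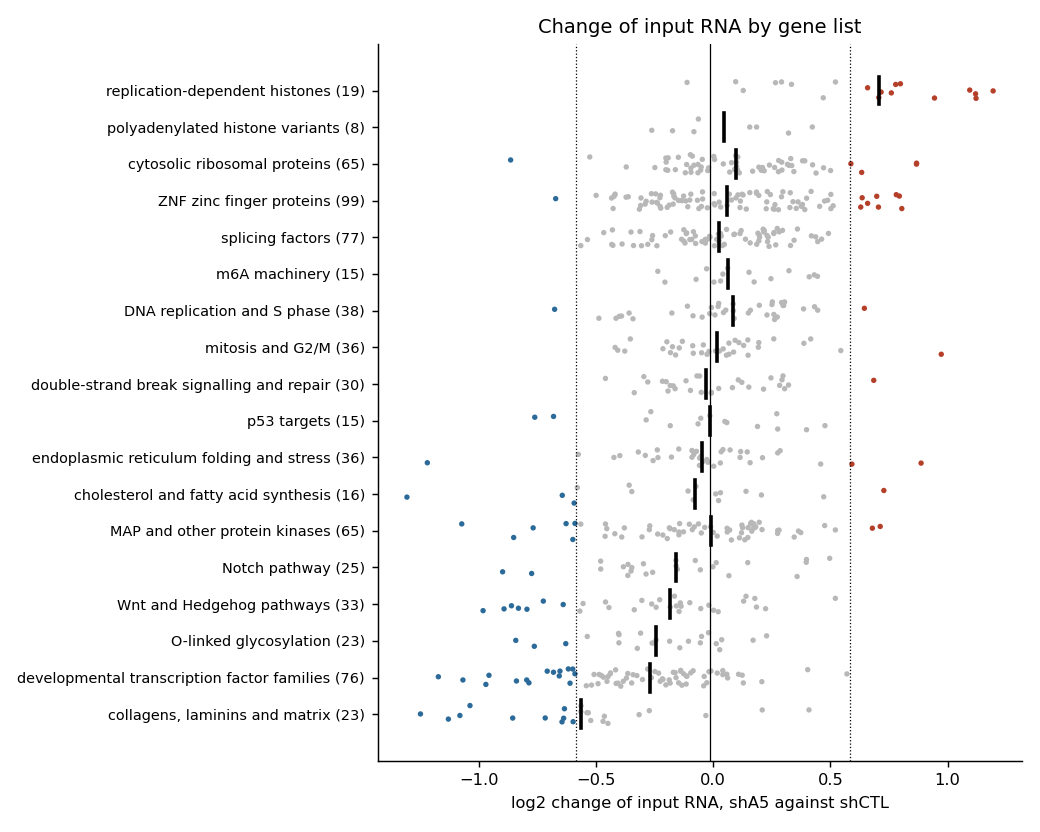
log2 change of input RNA (horizontal) for each kept member of 18 gene lists, 1 point per gene, with the number of kept members in brackets, red and blue points at least 1.5-fold higher or lower and thick bars at the list medians. The thin line marks the median of all kept genes (-0.01) and the dotted lines 1.5-fold; replication-dependent histones lie to the right (median 0.71) and matrix genes to the left (median -0.56). The list of developmental transcription factors was chosen after values were seen.

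Replication-dependent histone genes had the highest median of all the lists. Their mRNAs are made in S phase and end in a conserved stem-loop in place of a poly(A) tail. Of the 19 kept genes 11 were higher and 0 lower, beside 2.71% higher among all kept genes, and the median log2 change was 0.71. Those with the largest rises by the bound of the interval were H3C2 with 164 and 206 counts (73.3 and 157 CPM, 1.09, interval 0.80 to 1.40), H2AC17 with 42.9 and 93.8 CPM (1.12), H3C10 with 27.7 and 64.1 CPM (1.19) and the linker histone H1-2 with 131 and 252 CPM (0.94). The linker histone H1-4 had 1045 and 1051 counts (467 and 801 CPM, 0.78, interval 0.65 to 0.90), the most of the list, and H4C11 had 26.4 and 58.0 CPM (1.12). H2BC15 was the member below 0 (-0.11, 72 and 39 counts). In the m6A-IPs the median of the 19 genes was 0.49, with 17 above 0. The 8 kept genes in the list of polyadenylated histone variants had a median of 0.05 and 0 calls, with H2AX at 0.32 and MACROH2A1 at -0.26. The counted transcript of H2AX also holds the stem-loop letters, so it does not belong to this list alone.

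The stem-loop is shown since it sets these mRNAs apart from the rest of the input. It was searched as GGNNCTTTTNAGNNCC on the sense strand of the most counted transcript of each gene, and it was found in 19 of 19 replication-dependent histone transcripts and in 30 of the 4737 transcripts searched (0.633%). A match is a description of these letters only. The lines give the matched 16 bases in capitals with up to 5 bases on each side (hg38, Gencode v44, strand of the transcript), for the members with the largest rises and for H2BC15.
H3C10: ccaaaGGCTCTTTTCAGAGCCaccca
H4C11: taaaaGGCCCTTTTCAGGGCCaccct
H2AC17: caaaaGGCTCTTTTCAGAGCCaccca
H3C2: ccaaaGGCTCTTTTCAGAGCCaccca
H2BC15: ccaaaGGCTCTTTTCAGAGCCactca
The H3C10 match lies at chr6:27810516-27810531 on the plus strand and the H3C2 match at chr6:26031597-26031612 on the minus strand. H2BC15, which was not called, holds the same 16 letters as H3C2. In 17 of the 19 the annotated transcript ends within 10 bases of the match, and the transcripts of H3C10 and H2BC21 run on past it. Among the 11 other genes with a match were the histone genes H2AW (0.80, higher), H2AX (0.32) and H2BU1 (0.22), and the other 8 ranged from -0.52 (EHBP1L1) to 0.08 (DDB1).

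Of the other genes with the largest rises, PLCG2 and WDR74 share sequence with small nuclear RNAs that also lack a poly(A) tail. PLCG2, a phospholipase C that makes inositol trisphosphate, had 2211 and 3358 counts (988 and 2561 CPM, 1.37), and 107 of the 304 stretches of 25 bases that make up 7SK occur in its counted transcript. 7SK is a nuclear RNA that restrains transcription elongation. The exons of PLCG2 overlap the 7SK pseudogene RN7SKP176 on the same strand. WDR74, a factor of ribosome assembly, had 319 and 443 counts (143 and 338 CPM, 1.24), and its transcript holds all 167 stretches of RNU2-2P, a gene of the U2 spliceosomal RNA. Below the threshold, MTRNR2L12, a nuclear copy of the mitochondrial 16S rRNA gene, had 19835 and 16030 counts (0.46), with 40.8% of its stretches shared with MT-RNR2, and MTRNR2L8 had 5089 and 4219 counts (0.50). The change of MTRNR2L12 in the m6A-IPs was 0.04 and that of MTRNR2L8 was 0.05, while PLCG2 was at 0.50 and WDR74 at 0.68. MTRNR2L6 was at -0.19 (-0.49 to 0.11) and MTRNR2L1 at 0.22 (-0.33 to 0.78), and the latter interval holds the values of MTRNR2L12 and MTRNR2L8.

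The 7 kept mitochondrial mRNAs had 0 calls and a median of 0.16, with MT-CO1 at 0.16 (22374 and 14644 counts), MT-CO2 at 0.21 and MT-ND6, the mRNA of the light strand, highest at 0.52 (1361 and 1143 counts). Of the genes that share fewer stretches with a U1 or U2 RNA, TAOK1 (9 stretches) was at -0.00012 and ZNF354B (8 stretches) at 0.01. Counts per gene do not show which bases of PLCG2 or WDR74 the reads covered. The part that recovery of RNA without a poly(A) tail had in these values was not tested. Without the histones, the MTRNR2L genes, PLCG2 and WDR74, 116 genes were higher and 243 lower.

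The other genes with the largest rises had mixed functions. They were TASP1, a protease that cleaves the methyltransferase KMT2A (28.6 and 64.8 CPM, 1.17), ZRANB1, a deubiquitinase (55.9 and 117 CPM, 1.06), VPS33A, a subunit of the lysosomal tethering complexes and of the list of vesicle genes (32.6 and 68.6 CPM, 1.06), SLC48A1, a heme transporter (1.14), NPIPB7 (89 and 105 counts), the purinergic receptor P2RY11 (50.5 and 99.1 CPM, 0.97) and SMYD4 (166 and 291 CPM, 0.81). In the m6A-IPs P2RY11 was at 0.80 and SMYD4 at 0.72, while TASP1 was at 0.02 and VPS33A at 0.21. Many of these have exons that overlap other genes, ZRANB1 over 3416 nt of the antisense gene CTBP2, SMYD4 over 175 nt of RPA1, P2RY11 over 1148 nt of the readthrough gene PPAN-P2RY11 and VPS33A over 1609 nt of an unnamed coding gene, and NPIPB7 belongs to a family of near-identical copies, so their counts are uncertain.

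Among gene regulators, the ZNF zinc finger proteins had 8 of 99 kept genes higher (8.08%, beside 2.71% of all kept genes) and 1 lower, with a median of 0.06. With a minimum of 400 counts the median was -0.06. The leading members were ZNF490 (47.4 and 83.1 CPM, 0.80), ZNF697 (41.6 and 72.4 CPM, 0.79), ZNF543 (33.5 and 58.0 CPM, 0.78) and ZNF70 (145 and 225 CPM, 0.63). ZNF490 shares 3472 nt of exon with an unnamed gene on the same strand. Mediator, TFIID and RNA polymerase II genes had 2 of 39 higher, POLR2D (0.67) and MED20 (0.64), and 0 lower. Histone-modifying enzymes had 0 calls of 34, with KMT2D at 0.07 (6020 and 3710 counts) and SETD1A at 0.17. Chromatin remodelers had 0 higher and 2 lower of 27 (7.41%, beside 5.11% of all kept genes), CHD3 (-0.66) and ARID5B (-0.64). Among immediate-early genes BTG2 was lower (87.1 and 54.1 CPM, -0.68), 1 of 17 (5.88%).

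Among genes of RNA processing, of 77 splicing factors 0 were called in either direction, with a median of 0.02 and a range from -0.57 to 0.49, and the same held for 15 hnRNP genes (median -0.03). SRRM2, a scaffold of nuclear speckles, had 19185 and 10671 counts (-0.08), SNRNP200 was at 0.09 and HNRNPU at -0.12. In the list of nuclear speckle proteins and CDC-like kinases 1 of 24 was higher, the export helicase DDX39B (0.63), and 1 lower, LUC7L2 (-1.12, 79 and 21 counts). Each is 4.17% of the list, beside 2.71% higher and 5.11% lower among all kept genes. LUC7L2 shares 1377 nt with a readthrough gene, and DDX39B shares 1681 nt with another. Of 29 mRNA decay and deadenylation genes 1 was lower, BTG2, with a median of 0.11. In the list of the m6A machinery, which leaves out the targeted ALKBH5, 0 of 15 genes were called. METTL3, the catalytic methyltransferase, was at -0.24 (925 and 460 counts), IGF2BP1 at 0.15 (2307 and 1503 counts) and YTHDF1 at 0.43 (654 and 517 counts).

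The lists of translation and of mitochondrial genes had medians from -0.15 to 0.16. Their counts are to be read beside 2.71% higher and 5.11% lower among all kept genes. Of 65 cytosolic ribosomal protein genes 4 were higher and 1 lower, with a median of 0.10. The called members RPL23 (54.5 and 99.9 CPM, 0.87), RPL37A (35.3 and 64.8 CPM, 0.87), RPS7 (0.63), RPLP2 (0.59) and RPL3 (-0.86) each had under 300 counts in all, and RPS4X, with 10544 and 6585 counts, was at 0.09. Ribosomal protein genes have processed pseudogenes that can share reads. RPL23 was at 0.84 in the m6A-IPs, while RPL37A was at -0.12 and RPL3 at 0.35. Ribosome biogenesis genes had 0 higher and 1 lower of 57 (MDN1, -0.60) with a median of 0.10, and translation factors 1 higher of 36 (EIF2S1, 0.63). Aminoacyl-tRNA synthetases had 0 calls of 13 and a median of -0.15, with AARS1 at -0.01 and VARS1 at -0.05. Mitochondrial ribosomal proteins had 0 higher and 2 lower of 46 (MRPL3, -0.68, and MRPL12, -0.61), the nuclear respiratory chain 2 higher and 1 lower of 44 (ATP5F1A, 0.93, COX4I1, 0.66, and NDUFA4, -0.59), and import and assembly factors 1 lower of 19 (CHCHD3, -0.65).

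Counts of protein folding and turnover genes likewise stand beside 2.71% higher and 5.11% lower among all kept genes. Cytosolic chaperones had 1 higher of 26 (CHORDC1, 0.64). Genes of folding and stress in the endoplasmic reticulum had 2 higher and 1 lower of 36, among them PPP1R15A, the stress-induced phosphatase subunit that reverses the phosphorylation of eIF2α, with 731 and 646 counts (327 and 493 CPM, 0.59, interval 0.44 to 0.75, and 0.49 in the m6A-IPs). HYOU1, a chaperone of the same compartment, was higher (0.89, and -0.27 in the m6A-IPs) and DNAJC10 was lower (-1.22, 81 and 20 counts), while HSPA5, with 11407 and 6446 counts, was at -0.05 and was named after its value was seen. Proteasome genes had 2 lower of 20 (10%, PSMA5, -0.95, and PSMB10, -0.62). E2 enzymes and ubiquitin-like proteins had 1 lower of 24 (NEDD8, -0.84), RNF and TRIM ligases 1 higher and 1 lower of 52 (TRIM8, 0.78, and RNF103, -0.75), HECT and other large ligases 1 and 1 of 16 (HUWE1, 0.64, and ZNRF3), and deubiquitinases 1 and 1 of 25 (USP19, 0.59, and USP1, -0.68). Their medians lay between -0.05 and 0.11.

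Counts of cell cycle and DNA damage genes stand beside 2.71% higher and 5.11% lower among all kept genes. DNA replication and S phase genes had 1 higher (MCM8, 0.65) and 1 lower (USP1) of 38, with a median of 0.09, while 11 of the 19 replication-dependent histones were higher as described. MCM8 shares 2510 nt of exon with an unnamed gene on the same strand. Mitosis and G2/M genes had 1 higher of 36, the kinetochore protein SPC25 (21.9 and 43.5 CPM, 0.97, and -0.09 in the m6A-IPs), with a median of 0.02. Centrosome and cilium genes had 1 higher of 38 (CEP89, 118 and 191 CPM, 0.70). Double-strand break signalling and repair had 1 higher of 30, XRCC6, the Ku70 subunit of end joining (0.68, interval 0.21 to 1.18, 76 and 72 counts), with a median of -0.03. Of 15 p53 targets 2 were lower (13.3%), PMAIP1, which encodes the proapoptotic protein NOXA (34.0 and 19.8 CPM, -0.76, and -0.01 in the m6A-IPs), and BTG2, and 0 were higher, with a median of -0.01.

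The cell cycle inhibitors CDKN1A (3 and 4 counts) and CDKN2B (2 and 1 counts) and the repair genes BRCA1 (11 and 7), PALB2 (11 and 10) and TP53BP1 (29 and 26) were under the minimum of 100 counts. YTHDF2 (12 and 11) and YTHDF3 (2 and 1) were as well. The intervals of BRCA1 (-1.49 to 1.62), TP53BP1 (-0.21 to 1.43) and CDKN1A (-1.38 to 3.96) included 0, so a change of these RNAs was not detectable at this depth, and no fold is given for CDKN2B and YTHDF3, which had 3 counts or fewer in each input. CDKN1B was the CDK inhibitor with enough counts (-0.09, 100 and 55 counts). Of the genes used as loading controls, ACTB was at 0.20 (1299 and 872 counts) and GAPDH at -0.12.

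Lipid, transport and structural genes included a few of the largest changes. Cholesterol and fatty acid synthesis had 1 higher (6.25%) and 3 lower (18.75%) of 16, with a median of -0.08. Among all kept genes 2.71% were higher and 5.11% lower. Among the lower members INSIG1, which retains the sterol sensor SCAP in the endoplasmic reticulum, had 270 and 101 counts (-0.64), and SC5D was at -0.59, while FDFT1, squalene synthase, was higher (37.1 and 61.8 CPM, 0.73). SCD, the stearoyl-CoA desaturase, had 6577 and 2578 counts (-0.58), just under the threshold, and was named after its value was seen. In the m6A-IPs SCD was at -0.65, INSIG1 at 0.02 and FDFT1 at -0.09.

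Solute carriers had 3 higher (4%) and 5 lower (6.67%) of 75, beside 2.71% and 5.11% of all kept genes. The lists that follow are to be read beside the same shares. SLC38A10, an amino acid transporter, was lower (112 and 63.3 CPM, -0.82), and SLC48A1 and SLC35E2A (0.71) were higher. SLC2A4RG (-0.79) was caught by the pattern of the name and is a transcription regulator, not a carrier. RAB GTPases and vesicle coats had 1 higher and 2 lower of 63 (RAB26, -1.11, and COPZ1, -0.67). The list of phosphatidylinositol enzymes had 1 higher of 27, PLCG2, and its remaining 26 members were not called. Motor and spectrin genes had 1 higher and 3 lower of 42 (DCTN2, 0.59, MYO9A, -0.82, KIF26A, -0.65, and KIF21B, -0.60), and actin and tubulin genes 2 higher and 1 lower of 29 (EZR, 0.70, ACTR8, 0.69, and TUBB4A, -0.59). Nuclear pore and transport genes had 2 lower of 48 (NUP62CL, -0.62, and RANBP17, -0.59). Glycolysis and the TCA cycle had 1 higher of 22 (ACO1, 0.79) and peroxisomal genes 1 higher of 14 (MPV17, 0.59). The 7 cadherin genes were not called, with CELSR3 at 0.03 and CELSR2 at -0.19.

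Transcript length was taken from Gencode v44 for the most counted transcript of each gene and was known for 4737 genes. Over these genes length and log2 change had a Spearman correlation of -0.00083, a description across genes that share both libraries. The medians of the 5 classes lay between -0.03 and -0.0016. Shares of called genes did differ by class. Under 1000 nt 17 of 240 genes were higher (7.08%) and 12 were lower, and at 5000 nt or more 1.84% of 1522 genes were higher and 5.45% were lower. The 3 classes between had 2.48 to 3.06% higher and 4.38 to 5.63% lower. Without the replication-dependent histones, whose transcripts have a median length of 494 nt, 3.14% of the genes under 1000 nt were higher. The median length was 2970.5 nt for the higher genes with a known length, 3861.5 nt for the lower genes and 3661 nt for all kept genes.

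The content of G and C separated the lower genes more than length did. In the quintile of genes with the highest GC content (59.5 to 75.6%) the median change was -0.12, and 8.33% were lower and 1.69% higher. In the quintile with the lowest GC content (32.7 to 42.2%) 3.91% were lower and 2.01% higher. The median GC content was 55.9% for the lower genes and 50.7% for the higher genes, against 50.8% for all. With the genes split into 3 classes of GC content, the share of lower genes in the class richest in GC was 7.56% under 1000 nt, 5.65% from 1000 to 2000 nt and 11.8% of 272 genes at 5000 nt or more, where 0.368% were higher. In the GC-poorest class the same shares were 0% of 34 genes, 2.16% and 3.48%. Between the inputs GC content had a Spearman correlation of -0.10 with the change, and between the m6A-IPs 0.08, of the opposite sign. With the GC trend removed 128 genes were higher and 208 lower. The part of GC content in single changes was not tested.

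**Figure D4:**
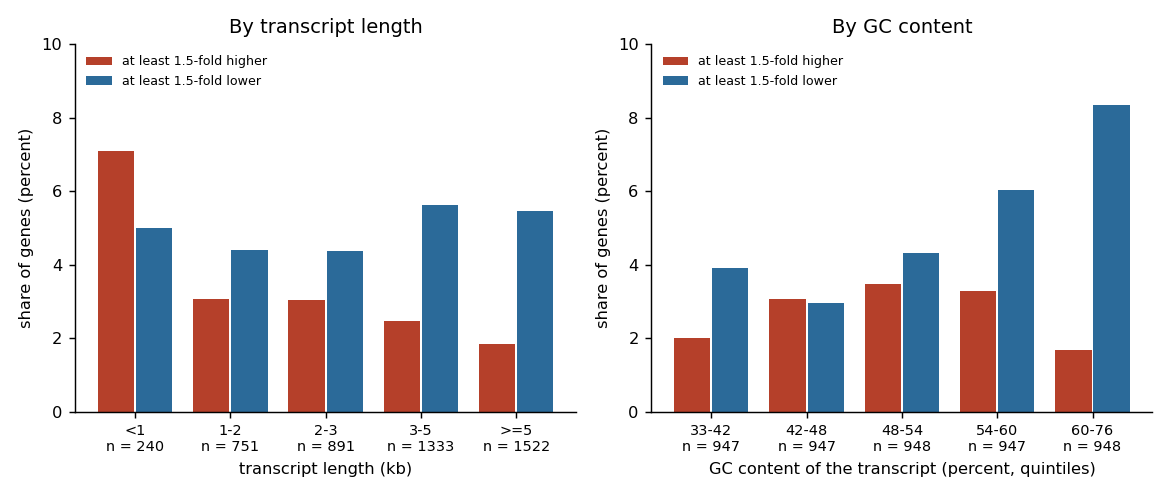
Share of genes (percent, bars from 0) that were at least 1.5-fold higher (red) or lower (blue) in the shA5 input, by class of transcript length (left) and by quintile of GC content (right), with the number of genes under each class. The share of higher genes is 7.08% under 1 kb and 1.84% at 5 kb or more, and the share of lower genes is 8.33% in the quintile richest in GC.

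Parts of the transcript gave weak relations. Coding length had a Spearman correlation of -0.08 with the change and the length of the 5′ UTR -0.07, while the 3′ UTR had 0.05. Among the quintile of genes with the longest 5′ UTRs (332 nt or more) 8.14% were lower, against 3.28% of the quintile with the shortest. DRACH, the sequence context of m6A (with D for any base but C, R for a purine and H for any base but G), was counted in each transcript. In the quintile with the fewest sites per kb (15.4 or fewer) 6.44% were lower and the median change was -0.08, and in the quintile with the most 3.38% were lower with a median of -0.0042. The shares of higher genes in these quintiles were 2.75 and 2.64%. How these features relate to GC content and to each other was not tested.

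Across the 4756 genes the change between the inputs and the change between the m6A-IPs had a Spearman correlation of 0.46, from libraries of the same populations that share no reads. Of the 129 higher genes 77.5% also lay above 0 in the m6A-IPs, where 48.0% of all kept genes did, and of the 243 lower genes 84.4% lay below 0, where 52.0% of all did. At 1.5-fold, 21 of the 129 higher genes were higher in the m6A-IPs too, which is 16.3% of them and a part of the 104 genes higher there, and 58 of the 243 lower genes were lower in both (23.9%), of 222 lower in the m6A-IPs. Changes in the opposite direction of at least 1.5-fold were seen in 3 of the higher and 1 of the lower genes. The median m6A-IP change was 0.29 for the higher genes and -0.39 for the lower genes, nearer 0 than the medians of 0.70 and -0.73 by which they were chosen.

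**Figure D5:**
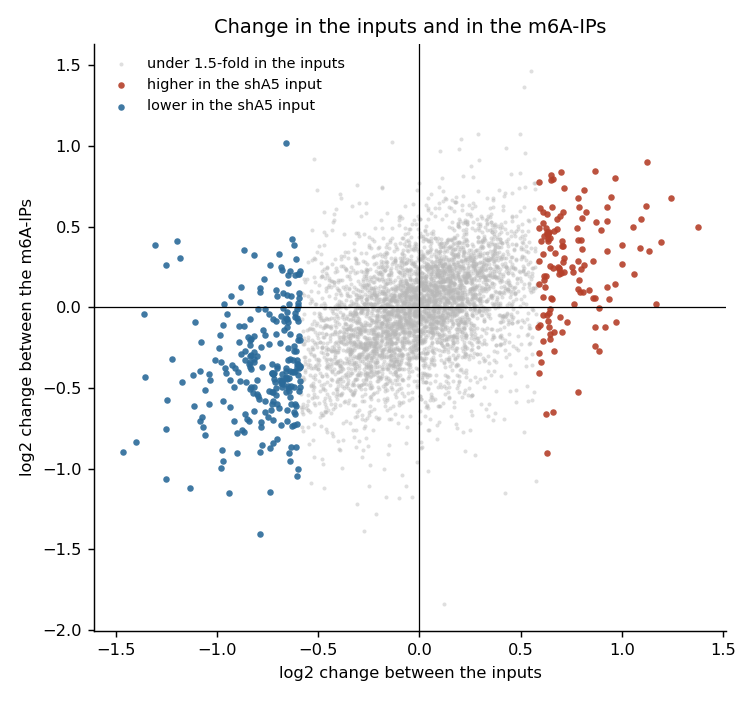
log2 change from shCTL to shA5 between the inputs (horizontal) and between the m6A-IPs (vertical), 1 point per kept gene. Of the genes higher in the shA5 input (red) 77.5% lie above 0 on the vertical axis, and of the lower genes (blue) 84.4% lie below it.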

How the data were processed

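m6A-seq input libraries of X-rayed HEK293T cells were compared, 1 with a control shRNA (shCTL) and 1 with an shRNA against ALKBH5 (shA5); samples were grouped by their titles, and the m6A-IP libraries served as further values. The values are raw counts for each Ensembl transcript as the authors deposited them, not normalized. The submitters' processing notes name bcl2fastq 2.0, fastp 0.23.2, HISAT2, SAMtools 1.9 and MACS2 with hg38; the counting program, its annotation, strand setting and rule for shared reads are not given in the sources used here. Reads shared with other copies or counted on the wrong gene can therefore move single values.

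Counts were summed per gene name (2 names had been turned into dates) and scaled to CPM by the library total. A pseudocount of 0.5 CPM, a minimum of 100 summed counts and a threshold of 1.5-fold were used, with no p-value, since each group has 1 library. The inputs summed to 2237819 (shCTL) and 1311390 (shA5) counts, so the latter limits the precision. The named genes are ALKBH5, the 15 largest rises and 15 largest falls ranked by the interval bound nearest 0, up to 4 called members of each list (the 2 with most counts where none was called) and genes the study discusses; any other gene in the text was named after its value was seen, and some genes that the rule names are not reported here. The members and lists were chosen with earlier results of these data known. The list of snoRNA host genes had 0 genes in the files.

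Transcript features and sequences are from Gencode v44 on hg38 (98.1% of 28413 listed transcripts matched); the shRNA sequences are from the study's supplementary table. The steps were tested on simulated data. Alternatives were edgeR TMM and DESeq2 size factors, other pseudocounts, count minimums and thresholds, thinning of the deeper input, and removal of lowess trends (span 0.3) on GC content or length. Scaling factors came from edgeR 4.0.16 and DESeq2 1.42.0 in R 4.3.3. All else used numpy 2.4.6, scipy 1.17.1, pandas 2.3.3, matplotlib 3.10.9 and statsmodels 0.14.6 in Python 3.11.15. Peaks and coverage were not analysed here.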

Additional observations from a re-analysis of the deposited data

How the results depend on the processing

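The counts of 129 higher and 243 lower genes depended most on the count minimum, which sets how many genes with wide intervals enter. A minimum of 50 counts gave 305 higher and 492 lower genes, a minimum of 400 counts 16 and 39, and no filter 2276 and 2966. A threshold of 2-fold gave 13 and 28. TMM factors, DESeq2 size factors, other pseudocounts, the interval added to the threshold, the deeper input thinned to the shallower total, removal of the GC trend and leaving out the histones, MTRNR2L genes, PLCG2 and WDR74 (chosen after the data were seen) gave 103 to 132 higher and 167 to 252 lower genes. Adding the interval could change little, since the calls had been made on a large change in the same counts. Thinning left 4051 genes at the count minimum, with 103 higher and 167 lower. Of the genes called before, 68 of the 129 and 128 of the 243 were still called. A call can be lost there through the minimum or through a changed ratio, and the rest of the calls were new. After removal of the GC trend 117 of the 129 and 198 of the 243 were still called. The median change of transcripts from 3000 to 5000 nt was 0.0101 with a minimum of 400 counts (-0.01 as reported), and that from 2000 to 3000 nt was -0.0061 with the GC trend removed (-0.03 as reported). Of the 54 gene lists with at least 6 kept members, 12 had a median that changed sign under TMM factors, a minimum of 400 counts or removal of the GC or length trend (for the 7 added lists these were chosen after the data were seen). All 12 medians were within 0.0863 of 0 as reported, and 8 changed with the minimum of 400 counts. No paired analysis was possible because only 1 input exists per population, which also leaves no replicate to drop. All differences thus lack a replicate check, and the intervals of genes under 200 counts reach a median of 0.53 to either side on the log2 scale.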
